A study of Homo sapiens and Mus musculus with 18 samples.

Results

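Early gastruloids of human and mouse were compared in 4 RNA-seq libraries, 2 of early human RA-gastruloids and 2 of early mouse gastruloids, out of 18 libraries in 9 groups. The comparison covered protein-coding genes whose symbol was used once in each species and was equal in both, ignoring case. There were 15225 such matched genes, from 18694 protein-coding symbols in human and 17424 in mouse. Of these, 13929 passed a filter on low counts and were tested. Symbols are written in capitals for both species.

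Human RA-gastruloids came from RUES2-GLR, an embryonic stem cell (ESC) line with fluorescent reporters for the germ layers. The primed ESCs were treated with CHIR99021, an inhibitor of GSK3 that activates WNT signalling, then with CHIR99021 and retinoic acid (RA). They were next dissociated and aggregated in Essential 6 medium with CHIR99021 and the ROCK inhibitor Y-27632, and early libraries were made 24 h after aggregation. Mouse gastruloids came from E14Tg2a ESCs kept in the naïve state with 2i and LIF and aggregated in N2B27 medium. They received CHIR99021 at 48 h after aggregation and no RA, and early libraries were made at 72 h, after 24 h of CHIR99021. Each species is represented by 1 cell line, and both biological replicates of a group came from a single experimental batch. Species, line, starting state, medium, the number of cells aggregated, RA and the timing of CHIR99021 differed together between the groups. Their contributions cannot be told apart.

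Gastruloids are aggregates of pluripotent cells that, after WNT activation, break symmetry and form an elongating axis with derivatives of the germ layers. In the embryo, epiblast cells leave pluripotency at the primitive streak under NODAL, WNT, BMP and FGF signals and switch on brachyury, the T-box factor of the streak and tail bud. The cells that follow include axial progenitors of the caudal epiblast and the presomitic mesoderm, from which somites are cut. HOX genes, which give cells their position along the axis, are switched on in the order of their places within each cluster, and RA is one of the signals known to activate the early ones.

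The early libraries held 9984573 and 9499295 counts in human and 20052505 and 11345059 in mouse. Levels are TPM, in which counts are divided by gene length and scaled to the same total in every library, and are given as human replicates 1 and 2 against mouse replicates 1 and 2 (n = 2 in each species). The fitted log2 difference of human over mouse, given ± SE, comes from edgeR's quasi-likelihood test on counts with gene length as an offset, and its adjusted p from Benjamini-Hochberg over the 13929 tested genes. A gene was called when the adjusted p was under 0.05 and the absolute log2 difference above 1. With 1 line and 1 batch per group, the p-values describe only the spread between these libraries. A floor of 3 counts per library is the limit that a count of 0 allows, and it covers counting error only.

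The broad level of expression was shared, but many genes differed. Across the 15225 matched genes, mean TPM in early human and early mouse gastruloids correlated with a Spearman coefficient of 0.729 and a Pearson coefficient of 0.733 on log2(TPM + 1). These correlations are across genes, which are not independent, and share the annotation and gene lengths of each species. Among 6245 tested genes with at least 10 TPM in both species, 3459 (55.4%) differed by under 1 log2 unit. Called genes made up 60.3% of the tested genes (8404 of 13929), with 32.3% higher in human (4503) and 28.0% higher in mouse (3901), and the libraries of the species did not overlap for 91.5% (12750). The median log2 difference over all tested genes was 0.095 and the median absolute difference 1.45. These shares are the background against which the gene lists are read, since a list in which 60.3% of the members were called is like the table as a whole.

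**Figure D1:**
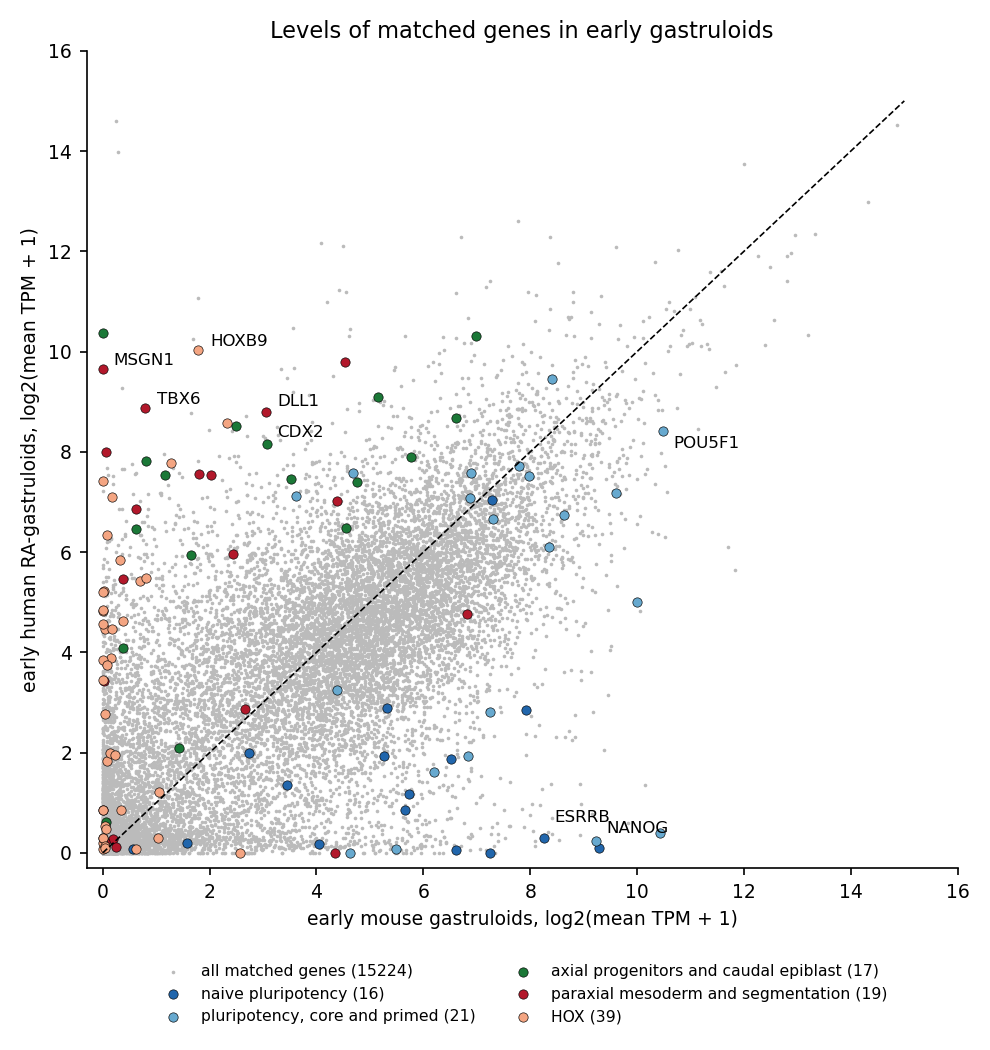
Mean level of each matched gene in early mouse (x axis) and early human (y axis) gastruloids, as log2(mean TPM + 1) over 2 libraries each, with 15224 genes in grey (a Y-linked gene is left out), members of 5 lists in colour and equal levels on the dashed line. Pluripotency genes lie mostly on or below the line, axial progenitor, paraxial mesoderm and HOX genes mostly above it.

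Ranks show the same spread in a form that does not use the scaling between species. The 10 highest matched genes in human were MT-CO3, MT-CO1, MT-CO2, MT-ND4, MT-ND1, GAPDH, HSP90AB1, EEF2, RPS12 and TMSB10. In mouse they were MT-CO1, MT-ND1, HSP90AB1, RPLP1, EEF2, MT-ND2, RPL8, EEF1A1, RPL4 and MT-ND5, so that mitochondrial, ribosomal and chaperone genes led in both. Among the matched genes, the human ranks of MT-CO1, HSP90AB1, EEF2 and ACTB were 2, 7, 8 and 22, and the mouse ranks 1, 3, 5 and 21. By contrast, UTF1 stood at rank 12831 in human and 49 in mouse, NANOG at 13654 in human and 162 in mouse, APLNR at 35 in human and 10240 in mouse and CRABP2, the RA-binding protein, at 12 in human and 5972 in mouse.

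Genes of the pluripotency network were mostly higher in mouse. Of 21 matched members of the core and primed pluripotency list, 13 were called higher in mouse, 3 higher in human and 5 in neither direction, with a median log2 difference of -1.87. The factor pair at its centre was present in both species. POU5F1 had 348 and 329 TPM against 1461 and 1397 TPM (-1.87 ± 0.08, adjusted p = 7.25e-23), and SOX2 had 140.1 and 148 TPM against 766 and 785 TPM (-2.22 ± 0.10, adjusted p = 1.63e-23). Both mouse libraries lay above both human libraries for each factor. In these bulk libraries fewer cells with a transcript and less of it per cell cannot be told apart, here and for all genes below. In RUES2-GLR ESCs before gastruloid formation POU5F1 had 461 and 458 TPM and SOX2 1129 and 1072 TPM. TPM share 1 total, and MT-CO1 alone took 73244 and 74465 TPM in RUES2-GLR ESCs against 23169 and 23589 TPM in early human libraries. Other genes of RUES2-GLR ESCs therefore read low in TPM beside early levels, here and below. RPL24 had 732 and 671 TPM before and 1205 and 1215 TPM at the early stage, with a fitted log2 change of -0.09.

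NANOG, the homeobox factor of pluripotent epiblast, was close to the floor in human and among the highest genes in mouse. It had 0.278 and 0.0732 TPM against 596 and 604 TPM, from counts of 4 and 1 against 7725 and 4464, and the groups did not overlap. The log2 difference was -11.45 ± 0.20 (adjusted p = 4.72e-36), a size that rests on few human counts, and it was the largest in the mouse direction among called genes that had at least 10 TPM in mouse, more than 3 counts in at least 1 human library and no overlap. Before gastruloid formation the human line had 11.9 and 11.6 TPM and the mouse naïve ESCs 1367 and 1313 TPM. Human NANOG has near-identical copies in the genome, and reads that align equally well to several places are not counted under the default settings.

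The promoters of NANOG are shown because, among the genes that met the limits just given, its level differed most in the mouse direction. A known pluripotency element is present in both species. The windows run from 250 bases before to 50 bases after the annotated start, chosen after the values were seen. The human window is chr12:7789152-7789451 on the + strand of GRCh38.p14 (RefSeq promoter table) and the mouse window chr6:122684198-122684497 on the + strand of GRCm39. Capitals mark a match to the octamer part TTTGCAT, any 1 base and the SOX part ACAATG, searched on both strands.
NANOG human: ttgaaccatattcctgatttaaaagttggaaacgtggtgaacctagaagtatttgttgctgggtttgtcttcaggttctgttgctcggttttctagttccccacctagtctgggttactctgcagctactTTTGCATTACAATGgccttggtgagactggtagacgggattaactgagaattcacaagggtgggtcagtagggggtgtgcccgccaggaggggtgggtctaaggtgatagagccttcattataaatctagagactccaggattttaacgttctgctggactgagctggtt
NANOG mouse: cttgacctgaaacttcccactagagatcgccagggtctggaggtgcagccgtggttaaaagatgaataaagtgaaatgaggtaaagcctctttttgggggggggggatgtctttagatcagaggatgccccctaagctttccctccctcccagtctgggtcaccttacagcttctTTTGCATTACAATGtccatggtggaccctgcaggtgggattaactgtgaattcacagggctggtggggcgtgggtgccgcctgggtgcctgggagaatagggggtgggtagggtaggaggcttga
The element starts 120 bases before the annotated start in human and 75 bases before it in mouse, and it reads the same in both. The windows were 54.9% identical over 346 aligned columns. The octamer part alone was in 3.02% of 8676 human and 3.57% of 15225 mouse promoter windows, and the joined element in 2 human (0.023%) and 1 mouse window (0.007%). A match is a description of letters and not a measure of binding.

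Other members of the list followed with differing sizes. UTF1, a chromatin factor of ESCs, had 0.616 and 0 against 1371 and 1378 TPM. L1TD1, an RNA-binding protein of pluripotent cells, had 31.2 and 30.9 against 1017 and 1028 TPM, and DPPA2 2.16 and 2 against 70.4 and 73.9 TPM. OTX2, the factor of the primed and anterior epiblast, had 3.3 and 2.32 against 109 and 117 TPM. These genes and GDF3 (7.26 and 4.79 against 159 and 144 TPM), ZFP42 (71.5 and 64 against 322 and 326 TPM), DNMT3B (101 and 109.9 against 397 and 393 TPM) and POU3F1 (7.95 and 9.18 against 21.2 and 18.7 TPM) were called higher in mouse. FGF5, the epiblast FGF that marks the primed state in mouse, had 0.126 and 0 against 43 and 44.3 TPM and had been at 0 and 0 TPM in the human line. FOXD3 was at 0 counts in both human libraries and at 23.5 and 24.2 TPM in mouse, at least 51.5-fold higher.

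Members higher in human were few. LIN28B, an inhibitor of let-7 processing, had 136 and 141 against 11.5 and 11 TPM, its paralog LIN28A 702 and 693 against 343 and 336 TPM, and the secreted WNT modulator SFRP2 192 and 190.1 against 24.9 and 24.7 TPM. Levels were close in both species for ZIC2 (134 and 134 against 117 and 115 TPM), SALL4 (196 and 185 against 119.6 and 116 TPM) and FOXH1 (178 and 186 against 253 and 249.98 TPM), factors shared by epiblast and streak, and for DPPA4 (100.02 and 101 against 159 and 153 TPM).

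The naïve pluripotency list stood further apart. Of 16 matched members, 14 were called higher in mouse and 0 in human, with a median log2 difference of -4.96. Apart from FGF4, the highest human level in this list was 6.72 TPM, for TBX3, and 12 members reached 10 TPM in mouse against 1 in human. KLF2 had 0.133 and 0 against 632 and 618 TPM (adjusted p = 1.15e-33), ESRRB 0.442 and 0 against 314 and 295 TPM (-10.15 ± 0.21, adjusted p = 5.18e-34) and TFCP2L1 0.0399 and 0.0421 against 97 and 96.6 TPM (adjusted p = 1.53e-33). These are transcription factors that hold mouse ESCs in the naïve state. The human libraries held at most 7 counts of any of them, so that no fitted size is given for KLF2 and TFCP2L1.

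The mouse levels of these factors at the early stage lay, on a log scale, nearer to naïve ESCs than to EpiLCs. ESRRB had 612 and 598 TPM in naïve ESCs and 10.6 and 9.42 TPM in EpiLCs, and KLF2 811 and 822 TPM and 44.7 and 45.8 TPM. Among the others, NR0B1 had 6.56 and 5.93 against 247 and 233 TPM, KLF5 2.85 and 2.47 against 93.5 and 88.7 TPM, KLF4 1.12 and 1.4 against 51.4 and 52.8 TPM, NR5A2 0.992 and 0.628 against 47.3 and 51.2 TPM, TBX3 6.72 and 6.09 against 38.5 and 39.5 TPM and PRDM14 3.48 and 2.17 against 38.5 and 36.7 TPM, and all were called higher in mouse. TRPM1, a cation channel and target of this network, had 0.251 and 0 against 15.7 and 15.4 TPM, and SUSD2, a surface protein, had 1.7 and 1.41 against 10.2 and 9.54 TPM. DPPA3, a maternal-effect and germline gene, was at 0 counts in human and 152 and 151 TPM in mouse, at least 141-fold higher. FGF4, the ligand by which the epiblast signals to its neighbours, was the exception, at 130.1 and 129.9 against 152 and 157 TPM (-0.04 ± 0.10, adjusted p = 0.722), although its groups did not overlap.

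**Figure D2:**
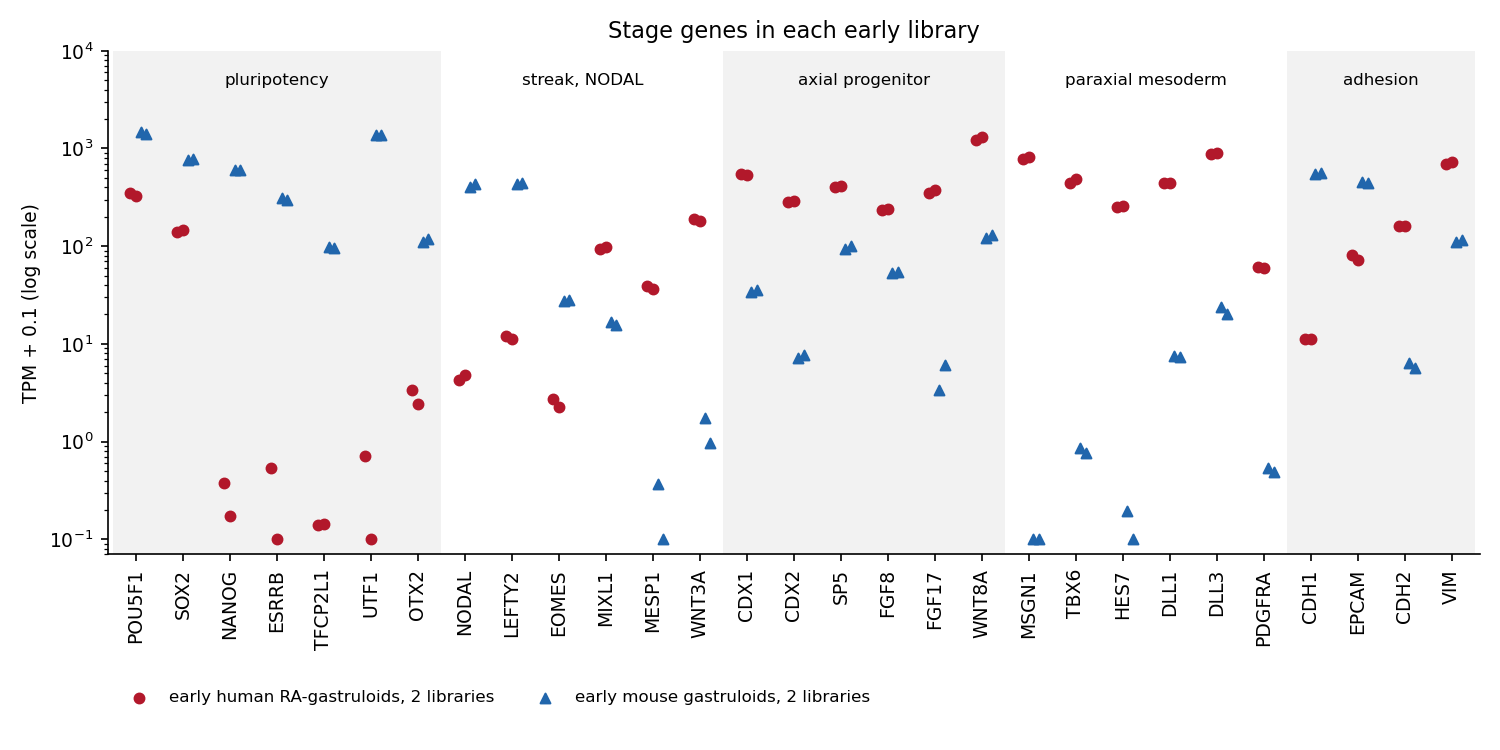
Level of stage genes in each early library, as TPM + 0.1 on a log axis, with human libraries as red circles and mouse libraries as blue triangles, grouped by role. Replicates lie close together for most genes, and the species separate in the mouse direction for the pluripotency genes, NODAL, LEFTY2, EOMES, CDH1 and EPCAM and in the human direction for the others.

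Brachyury, the T-box factor of the streak, was on in both species. Its symbols are TBXT in human (ENSG00000164458, chromosome 6, 166157656 to 166168700 in GRCh38) and T in mouse (ENSMUSG00000062327, chromosome 17, 8653062 to 8661328 in GRCm39), so it is not a matched gene and is given by identifier. TBXT had 186 and 193 TPM (189 ± 4.71, mean ± SD, n = 2) and T had 323 and 317 TPM (320 ± 4.19, n = 2). By level they would stand at rank 714 in human and 438 in mouse. Added to the fit, the pair had a log2 difference of -0.55 (edgeR quasi-likelihood adjusted p = 7.05e-05), which is under the threshold of 1 in size, although both mouse libraries lay above both human libraries. TBXT had 0.0689 and 0 TPM in RUES2-GLR ESCs and 2.65 and 0.798 TPM in late RA-gastruloids. T had 3.82 and 4.64 TPM in naïve ESCs and 18.9 and 21.0 TPM in late mouse gastruloids, so both genes were highest at the early stage.

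The other genes of the streak were divided. Of 17 members of the streak and nascent mesoderm list, 10 were higher in human and 5 in mouse, with a median of 1.15. The 5 that were higher in mouse were NODAL, LEFTY1, LEFTY2, EOMES and WNT3. NODAL, the TGF-beta ligand of the streak, had 4.12 and 4.73 against 405 and 437 TPM (-6.36 ± 0.15, adjusted p = 6.80e-32). Its inhibitors and targets LEFTY1 and LEFTY2 had 0.989 and 0.417 against 576 and 559 TPM and 11.9 and 11 against 431 and 439.8 TPM. EOMES, the T-box factor of NODAL-driven endoderm and mesoderm, had 2.66 and 2.16 against 27.3 and 27.8 TPM, and WNT3, the ligand that starts the streak, had 10.6 and 8.42 against 33.7 and 35.8 TPM. The human line was low in NODAL already, at 3.61 and 2.9 TPM before gastruloid formation, whereas mouse naïve ESCs had 205 and 205 TPM. Exonic bases shared with another annotated gene, where reads are not assigned, made up 33.5% in human and 0% in mouse for NODAL and 46.6% in human and 30.3% in mouse for LEFTY1.

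Members that were higher in human included receptors and factors of nascent mesoderm. APLNR, the apelin receptor of mesoderm leaving the streak, had 2142 and 2144 TPM against 2.2 and 2.71 TPM (10.01 ± 0.16, adjusted p = 2.27e-36), and its human rank was 35. PDGFRA, the PDGF receptor of paraxial and other mesoderm, had 61.2 and 60.3 against 0.432 and 0.394 TPM. MESP1, a factor of mesoderm migration, had 39.3 and 36.1 against 0.271 and 0 TPM, with 2 and 0 counts in mouse. MIXL1 and EVX1, homeobox factors of the streak, had 92.5 and 97.7 against 16.7 and 15.5 TPM and 38.9 and 39.4 against 19.6 and 21.5 TPM. SNAI1, which represses E-cadherin, had 133 and 139.5 against 27.5 and 24.7 TPM, FGF3 73.6 and 69 against 2.46 and 2.22 TPM, and CER1, a secreted inhibitor of NODAL, BMP and WNT, 36.5 and 32.7 against 0.199 and 0.524 TPM. The factors of the anterior streak and organizer were low in both species, with GSC at 5.58 and 2.42 against 6.14 and 6.94 TPM and FOXA2 at 1.79 and 2.18 against 2.92 and 3.33 TPM, neither of which was called.

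Matched axial progenitor genes were all higher in human. All 17 matched members of the axial progenitor and caudal epiblast list were called higher in human, against 32.3% of all tested genes. Their median log2 difference was 4.26. The list also holds brachyury, which is not a matched gene and lay in the mouse direction at -0.55, under the threshold. The caudal homeobox factors CDX1 and CDX2 had 547 and 537 against 33.8 and 35.4 TPM (4.18 ± 0.13, adjusted p = 3.53e-28) and 281 and 290.1 against 7.12 and 7.65 TPM (5.49 ± 0.14, adjusted p = 1.95e-30). CDX4, the third of them, was low in both species at 3.65 and 2.88 against 1.68 and 1.7 TPM. RUES2-GLR ESCs had 0 TPM of CDX1 and CDX2 in both replicates. Mouse naïve ESCs already held CDX1, at 66.5 and 68 TPM, and in late mouse gastruloids CDX2 had 17.6 and 18 TPM.

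The WNT and FGF ligands of the tail bud were among these genes. WNT8A had 1215 and 1324 against 121 and 129.5 TPM (3.56 ± 0.10, adjusted p = 3.63e-29), WNT3A, which sustains axial progenitors, 188 and 182 against 1.63 and 0.88 TPM, and the non-canonical ligands WNT5A and WNT5B 217 and 231 against 0.774 and 0.737 TPM and 166 and 168 against 26.5 and 25.9 TPM. FGF8 had 236 and 238 against 52.7 and 54.4 TPM, and its close relative FGF17 352 and 376 against 3.28 and 5.93 TPM. Of these ligands WNT8A had the highest mouse level and WNT5A the lowest. SP5 and SP8, zinc finger factors downstream of WNT, had 408 and 410.3 against 94.2 and 99.6 TPM and 172 and 176 against 10.6 and 10.3 TPM, and SP5 was at 71.8 and 69.1 TPM in mouse naïve ESCs, whose 2i medium also holds CHIR99021. NKX1-2, a marker of the caudal lateral epiblast, had 91.3 and 84.4 against 23 and 21.7 TPM, GREB1 58 and 62.7 against 2.13 and 2.12 TPM, and the HES family repressor HES3 89 and 85 against 0.442 and 0.62 TPM.

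NTS, which encodes the peptide neurotensin, had 1334 and 1326 TPM in human and 0 counts in both mouse libraries, at least 1823-fold higher. It was at 73 and 64 TPM in RUES2-GLR ESCs and at 0 in mouse naïve ESCs and EpiLCs. EPHA5, the lowest member, reached 0.685 TPM.

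Genes of the presomitic mesoderm and its segmentation clock were on in human and low in mouse. Of 19 matched members 18 were tested, 12 were called higher in human and 2 in mouse, and the median log2 difference was 5.80. MSGN1, the factor that commits cells to presomitic mesoderm, had 787 and 822 TPM in human, from 2816 and 2791 counts, and 0 counts in both mouse libraries. Against the floor it was at least 542-fold higher. TBX6, the T-box factor that diverts axial progenitors from a neural to a mesodermal fate, had 448 and 484 TPM against 0.768 and 0.673 TPM (9.50 ± 0.22, adjusted p = 2.91e-32). The human libraries stood far above the mouse libraries for both factors. In RUES2-GLR ESCs MSGN1 had 0 TPM in both replicates and TBX6 1.97 and 1.52 TPM. In late gastruloids MSGN1 was at 1.57 and 1.55 TPM in human and at 0 TPM in both mouse replicates.

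The promoters of MSGN1 are shown because this gene had no counts in early mouse gastruloids while WNT activation was part of both protocols. The windows again run from 250 bases before to 50 bases after the annotated start and were chosen after the values were seen. The human window is chr2:17816210-17816509 on the + strand of GRCh38.p14 (RefSeq promoter table) and the mouse window chr12:11258924-11259223 on the - strand of GRCm39. Capitals mark a match to the TCF/LEF motif CTTTGAT, searched on both strands and here read on the other strand.
MSGN1 human: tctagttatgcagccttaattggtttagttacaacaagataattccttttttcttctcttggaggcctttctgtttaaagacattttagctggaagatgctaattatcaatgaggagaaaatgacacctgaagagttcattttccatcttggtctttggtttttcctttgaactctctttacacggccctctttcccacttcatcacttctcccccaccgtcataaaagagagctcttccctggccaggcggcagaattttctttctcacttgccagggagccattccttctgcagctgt
MSGN1 mouse: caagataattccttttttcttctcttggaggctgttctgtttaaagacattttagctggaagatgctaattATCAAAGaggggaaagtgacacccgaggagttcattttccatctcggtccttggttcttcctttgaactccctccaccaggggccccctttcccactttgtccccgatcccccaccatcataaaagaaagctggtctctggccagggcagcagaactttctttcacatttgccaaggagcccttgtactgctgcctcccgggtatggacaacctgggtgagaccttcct
The match lies 179 bases before the annotated start in mouse, and these letters were not found in the human window. Only this form of the motif was searched and marked. CTTTGAA, which differs from it in the last letter, can be read in both windows. The windows were 69.8% identical over 334 aligned columns. The motif was in 1.57% of 8676 human and 2.81% of 15225 mouse windows. The absence of the letters from 1 window says nothing about the factor.

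The clock and the Notch pathway followed MSGN1 and TBX6. HES7, the oscillating repressor of the clock, had 251 and 259.6 against 0.0957 and 0 TPM (adjusted p = 3.06e-30), with 1 and 0 counts in mouse. LFNG, a modifier of Notch, had 176 and 197 against 3.39 and 1.58 TPM, and the Notch ligands DLL1 and DLL3 had 444 and 441 against 7.47 and 7.27 TPM and 887 and 891 against 23.9 and 20.3 TPM. NOTCH1, the receptor, had 124 and 133 against 20.3 and 19.7 TPM, and NRARP, a feedback inhibitor of Notch, 56.8 and 65.1 against 3.62 and 5.17 TPM. The forkhead factors FOXC1 and FOXC2 had 111 and 118 against 0.503 and 0.571 TPM and 45.7 and 40.7 against 0.381 and 0.223 TPM, and RSPO3, a ligand that enhances WNT signalling, 179.8 and 188 against 3.47 and 2.65 TPM.

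Genes of formed somites were low in both species. MEOX1, MEOX2 and UNCX had at most 0.316 TPM in any early library and none was called. PAX3 had 8.9 and 10.7 against 0.028 and 0 TPM, RIPPLY2 8 to 9 counts in human and 0 in mouse, and HEY1 6.48 and 6.18 against 5.25 and 5.49 TPM. The members that were higher in mouse were TCF15, with 29 and 23.5 against 113 and 111 TPM, and RIPPLY1, with 0 counts in human and 21.3 and 17.6 TPM in mouse, at least 19.7-fold higher. TCF15 is a basic helix-loop-helix factor of somites that is also known from epiblast cells, and it was at 67.4 and 62.2 TPM in mouse naïve ESCs.

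RA was part of the human protocol only, and genes that bind, make or degrade it were mostly higher in human. Of 24 members of the list, 17 were higher in human, 2 in mouse and 5 in neither direction, with a median log2 difference of 2.45. CRABP2, which carries RA to its nuclear receptors, stood at rank 12 of the matched genes in human, with 4446 and 4349 TPM against 24 and 19.1 TPM (7.86 ± 0.14, adjusted p = 2.27e-36). RUES2-GLR ESCs had 312 and 321 TPM. STRA6, the membrane receptor for retinol-binding protein and an RA-induced gene, had 117 and 112 against 0.356 and 0.104 TPM (8.95 ± 0.22, adjusted p = 7.71e-32). CRABP1, a relative of CRABP2, had 76.1 and 82.7 against 20.3 and 18.5 TPM.

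The RA-degrading enzymes were at moderate levels. CYP26A1 had 16.5 and 15.3 against 0.436 and 0.153 TPM and CYP26B1 16.6 and 15.7 against 0.388 and 0.284 TPM, and the human libraries lay above the mouse libraries for both. CYP26A1 was higher in RUES2-GLR ESCs, at 159 and 187 TPM, and higher in late mouse gastruloids, at 54.3 and 49.3 TPM. DHRS3, which lowers retinaldehyde, had 17 and 14.9 against 0.473 and 0.83 TPM, and the RA-synthesizing ALDH1A2 17.2 and 17 against 5.43 and 7.37 TPM. MEIS2, a homeobox factor induced by RA, had 27.9 and 26.8 against 1.71 and 2.07 TPM.

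The nuclear RA receptors differed among themselves. RARG, the receptor of the caudal embryo, had close levels in both species, at 97.1 and 92.6 against 101 and 103 TPM (0.11 ± 0.10, adjusted p = 0.289). RXRA was also close, at 28.6 and 27.4 against 25.9 and 27.6 TPM, with overlapping groups. RARA and RXRB were called higher in mouse, at 10.7 and 12.9 against 34.4 and 32.3 TPM and 15.5 and 16.2 against 54.9 and 52.3 TPM, and RXRG higher in human, at 20.7 and 22.3 against 5.05 and 5.55 TPM. RARB, the receptor most often used as an RA target, was low even in human, at 0.99 and 1.04 TPM, with 0 counts in mouse.

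HOX genes set the species apart across all clusters. Of 39 HOX genes 36 were tested, 27 were called higher in human and 2 in mouse, and the median log2 difference was 6.89, or 5.92 with the 12 members that had 0 counts in 1 species set to their bound from the floor. In human 20 members reached 10 TPM and in mouse 0. HOXB9 had 1028 and 1053 TPM against 2.62 and 2.24 TPM (8.92 ± 0.15, adjusted p = 1.51e-35) and HOXB1 373 and 388 against 4.17 and 3.79 TPM (6.77 ± 0.17, adjusted p = 1.96e-30). The human and mouse libraries did not overlap for either gene. In RUES2-GLR ESCs HOXB9 and HOXB1 had 0 TPM in both replicates. Of the 27 that were higher in human, 13 shared under 20% of their exonic bases with another annotated gene in both species. Reads in shared stretches are not assigned, and the counting is not stated to use strand, so that antisense transcripts cannot be told apart.

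By position, the difference lay in the first to the ninth paralog group. Groups 1 to 3 summed to 894 and 946 TPM in human and 6.49 and 5.93 TPM in mouse, and 8 of 8 members were higher in human. Groups 4 to 6 summed to 253 and 306 TPM against 1.04 and 1.29 TPM, and 10 of 10 were higher in human. Groups 7 to 9 summed to 1233 and 1266 TPM against 3.65 and 3.41 TPM, and 8 of 9 were higher in human. Groups 10 to 13 summed to 4.49 and 2.06 TPM in human and 7.25 and 8.27 TPM in mouse. Of 9 tested members of these last groups, 1 was higher in human (HOXA13, 0.516 and 0.389 against 0.0721 and 0 TPM) and 2 in mouse (HOXC13, 0 and 0 against 4.57 and 5.3 TPM, and HOXD13, 0.465 and 0 against 0.767 and 1.34 TPM).

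The clusters contributed unequally in human. HOXB genes summed to 1849 and 1911 TPM, HOXD genes to 132 and 169.8 TPM and HOXC genes to 99.4 and 113 TPM. In mouse no cluster summed to more than 8.55 TPM. Within HOXB, HOXB2 had 169 and 172 TPM in human and 0 counts in mouse (at least 653-fold higher), HOXB8 had 134 and 139 against 0.131 and 0.115 TPM, and HOXB5 had 34 and 38 TPM with 0 counts in mouse (at least 110.1-fold higher). Outside HOXB, HOXD4 had 64.9 and 95.8 against 0 and 0.103 TPM, HOXC4 54.2 and 57.9 against 0.27 and 0.236 TPM and HOXD1 40.1 and 47.1 against 0.837 and 0.652 TPM. The human replicates were further apart for HOXD4 than for HOXC4. HOXB3 (34.9 and 37.8 against 0.0407 and 0 TPM), HOXB4 (39.4 and 44.9 against 0.405 and 0.828 TPM), HOXB6 (12.2 and 14.4 against 0 and 0 TPM) and HOXB7 (23.6 and 23.6 against 0 and 0.59 TPM) filled the HOXB cluster between these. HOXA2 (25.3 and 29.1 against 0 and 0 TPM), HOXA3 (18.8 and 23.6 against 0.0576 and 0 TPM), HOXA5 (25.9 and 29.6 against 0 and 0 TPM), HOXA7 (14.4 and 13.1 against 0.12 and 0.106 TPM), HOXC6 (11.1 and 13.6 against 0 and 0.126 TPM), HOXC8 (19.7 and 22.9 against 0.244 and 0 TPM) and HOXD3 (21.1 and 24 against 0 and 0 TPM) were also called higher in human.

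**Figure D3:**
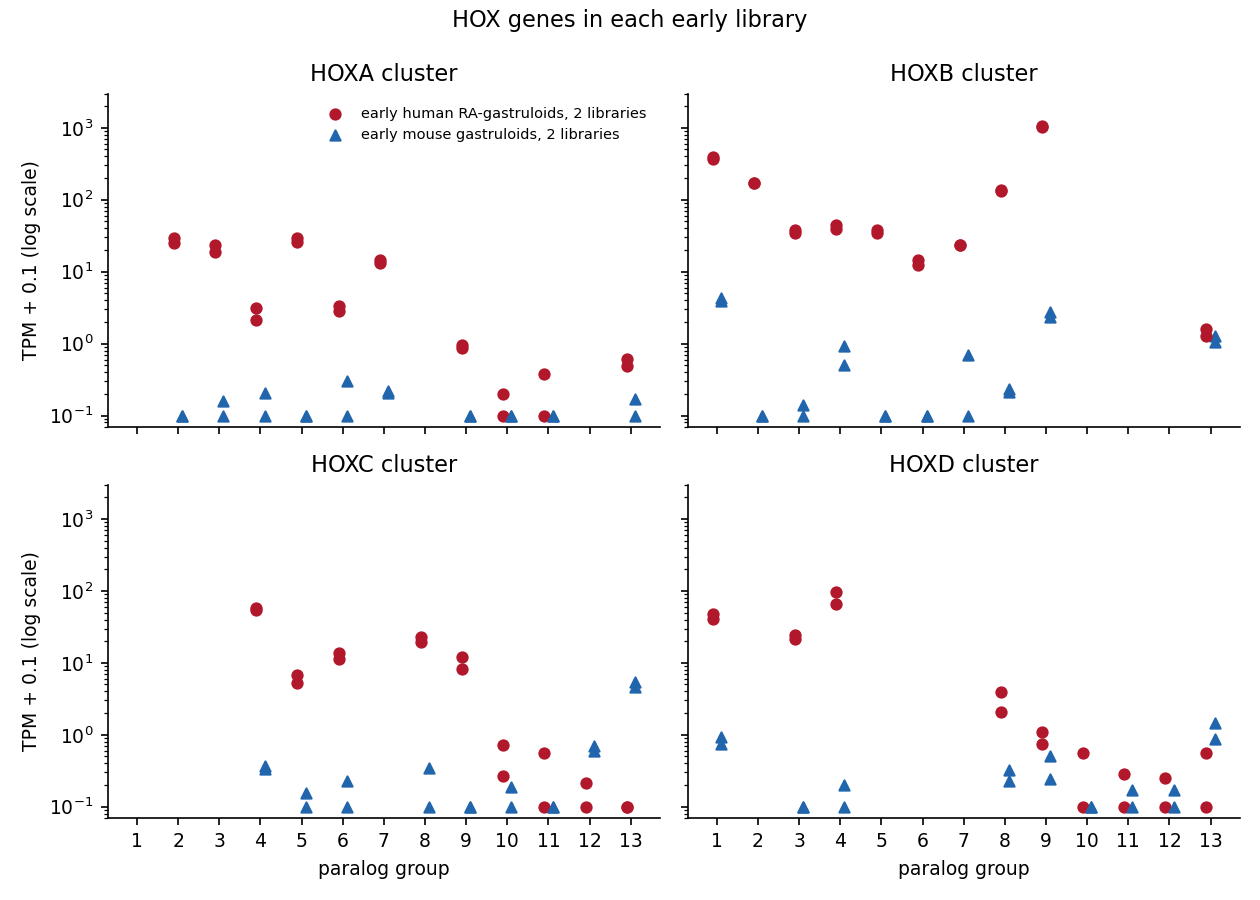
Members of the HOX list in each early library by cluster (4 panels) and paralog group (x axis), as TPM + 0.1 on a log axis, with human libraries as red circles and mouse libraries as blue triangles. Human circles lie above mouse triangles for the genes shown in groups 1 to 8, and HOXB9 reaches 1028 and 1053 TPM. In groups 10 to 13 both species are low, and HOXC13 lies higher in mouse, at 4.57 and 5.3 TPM.

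Targets of WNT signalling were divided. Of 20 matched genes 19 were tested, 10 were higher in human, 1 was higher in mouse and 8 were called in neither direction, with a median log2 difference of 1.21. LEF1, a transcription factor of the pathway, had 160.4 and 166 against 14.8 and 14.4 TPM (3.69 ± 0.12, adjusted p = 8.80e-28), and the secreted inhibitor DKK1 59.8 and 60.4 against 2.21 and 1.88 TPM (5.05 ± 0.21, adjusted p = 2.75e-24). TCF7, a factor of the same family as LEF1, was called higher in mouse, at 14.9 and 15 against 204 and 197 TPM (-3.53 ± 0.11, adjusted p = 3.11e-28). AXIN2, the most general feedback target, had 30.2 and 32.3 against 70.03 and 69.3 TPM, which did not pass the fold threshold.

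The feedback inhibitors of the list were divided. NKD1 (21.3 and 21.8 against 9.19 and 9.52 TPM), ZNRF3 (26.1 and 29 against 14 and 13.5 TPM), APCDD1 (22 and 22.1 against 1.89 and 1.93 TPM) and BAMBI (17.8 and 17.2 against 6.17 and 5.98 TPM), inhibitors of WNT or TGF-beta signalling, were called higher in human. The inhibitors RNF43 (1.71 and 1.62 against 2.01 and 1.94 TPM), NKD2 (1.16 and 2.03 against 2.37 and 3.02 TPM) and the deacylase NOTUM (19.9 and 17.2 against 35.2 and 37.3 TPM) were not called, nor was AXIN2, with fitted log2 differences of -0.03, -0.52, -0.75 and -0.95. TNFRSF19 (77.4 and 84.1 against 61.3 and 63.5 TPM), CCND1 (111 and 105 against 145 and 138 TPM) and TCF7L1 (40.9 and 42.7 against 90.1 and 90.6 TPM) were not called either, with fitted values of 0.58, -0.18 and -0.90. The choice of gene length changed the count of members that were higher in mouse from 1 to 4 without length and to 2 with the length of the canonical transcript.

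In the NODAL and BMP list, ligands lay on both sides, and so did inhibitors. Of 22 matched members 11 were higher in human and 7 in mouse, with a median of 0.83. BMP2 had 42.6 and 42.5 against 0.633 and 0.512 TPM and BMP7 13.3 and 13.2 against 54.1 and 51.1 TPM, on opposite sides, and BMP4 had 13.7 and 11.7 against 23.3 and 20.7 TPM without a call. NOG, which binds BMPs, had 95.6 and 94.4 against 1.33 and 1.79 TPM (6.18 ± 0.26, adjusted p = 1.68e-23). The BMP targets ID1, ID2 and ID3 had 243 and 251 against 12.4 and 9.16 TPM, 22.5 and 26.4 against 1.85 and 3.24 TPM and 475 and 506 against 35.6 and 38.6 TPM, and MSX1 and MSX2 had 231 and 247 against 4.92 and 4.71 TPM and 16.7 and 13.5 against 0.633 and 0.278 TPM, all higher in human. ID4 was level, at 16.8 and 16.3 against 17.5 and 18.6 TPM. On the mouse side stood, beside NODAL, the LEFTY genes and GDF3, the inhibitor SMAD7 (11.1 and 10.4 against 66.7 and 63.9 TPM).

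The FGF ligands FGF2, FGF3, FGF8, FGF17 and FGF18 were higher in human, and the intracellular feedback genes were divided. Of 22 matched members 12 were higher in human and 3 in mouse, with a median of 1.63. FGF2 had 18.5 and 17.8 against 0.179 and 0.134 TPM and FGF18 7.86 and 9.87 against 3.35 and 3.07 TPM. The receptor FGFR1 had 108 and 119 against 44.4 and 42.3 TPM, FGFR4 68.8 and 72.2 against 7.28 and 7.8 TPM and FGFR2 3.64 and 3.63 against 5.87 and 6.82 TPM. The ETS factor ETV4 had 110.05 and 106 against 39.1 and 38.4 TPM and its relative ETV5 28.2 and 23.7 against 319.6 and 311 TPM, in opposite directions. Of the phosphatases, DUSP6 was close (98.6 and 104 against 81.8 and 80.5 TPM) and DUSP4 higher in mouse (4.63 and 4.39 against 128 and 133 TPM). SPRED2 (58.6 and 59.6 against 62.7 and 65.1 TPM) and SPRY2 (75.9 and 76.9 against 164 and 167 TPM) were not called, with fitted log2 differences of 0.10 and -0.91. EGR1 and FOS, immediate early genes that also respond to handling, had 273 and 329 against 32.2 and 26.5 TPM and 114 and 133 against 27.1 and 30.1 TPM.

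**Figure D4:**
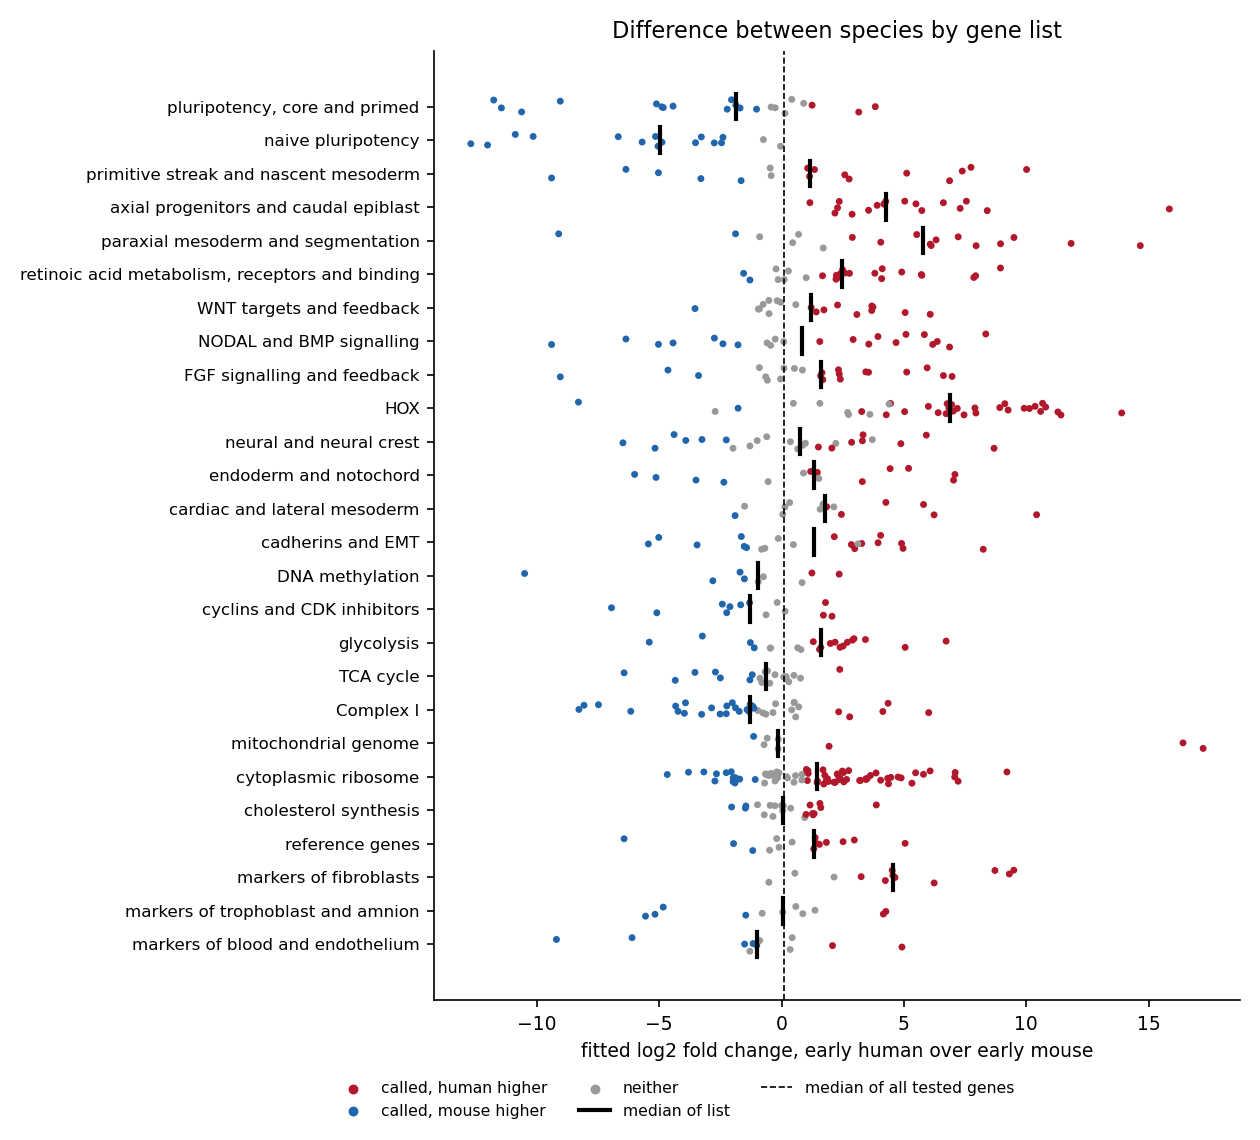
Fitted log2 difference of early human over early mouse (x axis) for tested members of 26 lists (y axis), in red where human was called higher, blue where mouse was called higher and grey where neither was called, with the list median as a black bar and the median of all tested genes, 0.095, as a dashed line. The medians run from -4.96 for naïve pluripotency to 6.89 for HOX genes.

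The cadherins differed in kind between the species. CDH1, E-cadherin, had 11.1 and 11.2 TPM against 552 and 567 TPM (-5.44 ± 0.11, adjusted p = 2.32e-34), and CDH2, N-cadherin, had 162 and 159 TPM against 6.22 and 5.57 TPM (4.97 ± 0.11, adjusted p = 2.95e-33). The groups stood apart in opposite directions. In RUES2-GLR ESCs CDH1 had been at 344 and 336 TPM, and in mouse naïve ESCs at 429 and 424 TPM. VIM, the intermediate filament of mesenchyme, had 694 and 725 against 111 and 116 TPM, CDH11 80.9 and 77.5 against 0.175 and 0.511 TPM, and the repressors ZEB1 and ZEB2 12.8 and 15.2 against 3.25 and 4.14 TPM and 12.5 and 12.6 against 0.505 and 0.451 TPM. On the mouse side were GRHL2 (0.865 and 1.17 against 39.2 and 37.2 TPM) and the splicing factors ESRP1 (13.3 and 13.6 against 50.1 and 46.9 TPM) and ESRP2 (1.23 and 1.14 against 15.5 and 14.5 TPM), which maintain epithelial programs, and CDH3 (7.43 and 6.23 against 23 and 22.6 TPM).

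The list as a whole was mixed, with 9 of 20 members higher in human, 6 in mouse and a median of 1.32, or 0.24 with TWIST2, which had 1 and 0 counts in human and 0 in mouse, set to no difference. The mesenchymal factor TWIST1 was higher in mouse, at 5.43 and 6.12 against 17.9 and 18.3 TPM. Laminin chains LAMB1 (56.2 and 56.2 against 70.4 and 72.2 TPM) and LAMC1 (188 and 193 against 156 and 159 TPM) were close in both, while their partner LAMA1 had 59.1 and 58.3 against 4.08 and 4.14 TPM and the collagen IV chains COL4A1 and COL4A2 69.1 and 71.3 against 8.49 and 8.26 TPM and 79.1 and 85.1 against 6.59 and 5.6 TPM. Fibronectin, FN1, had 179.9 and 191 against 378 and 375 TPM without passing the fold threshold.

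Genes of later lineages were mostly low. Of 24 tested neural and neural crest genes 8 were higher in human and 6 in mouse (median 0.76, or 0.52 with members at 0 set to their bound), and 5 of the 25 matched members reached 10 TPM in human and 1 in mouse. SNAI2, a factor of neural crest and of mesoderm, was the highest, at 217 and 216 against 0.942 and 0 TPM (8.68 ± 0.26, adjusted p = 5.85e-29). GBX2, of the caudal neural plate, had 48.3 and 47.2 against 4.77 and 6.55 TPM, SOX9 18.8 and 16.8 against 0.67 and 0.734 TPM, IRX3 14.8 and 13.2 against 1.75 and 2.97 TPM and SOX3, a neural and epiblast factor, 30.7 and 34.2 against 23.1 and 24.4 TPM, which was not called. The neural factors PAX6, SOX1 and NEUROG2 had at most 0.918 TPM in any early library, and PAX6 was called higher in mouse at that level.

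Endoderm genes gave levels on both sides. Of 14 matched members 7 were higher in human and 4 in mouse (median 1.33). SOX17, the endoderm factor, had 36.8 and 36.2 against 0.29 and 0.318 TPM, CXCR4 339.9 and 349 against 3.25 and 2.69 TPM, FOXA3 36.2 and 36.6 against 1.1 and 1.19 TPM, and the keratins KRT8 and KRT18 269 and 264 against 33.2 and 28.8 TPM and 141 and 136 against 72.6 and 67.4 TPM. CLDN6, a claudin of pluripotent and endoderm cells, had 626 and 611 against 268 and 252 TPM. TRH, which encodes thyrotropin-releasing hormone and is known from the node and notochord region, stood at rank 15 of the matched genes in mouse, at 43.5 and 54.5 against 3689 and 3572 TPM (adjusted p = 7.49e-35). EPCAM, an epithelial adhesion molecule, had 80.4 and 71.8 against 456 and 446 TPM, PRDM1 2.44 and 3.04 against 34.9 and 36.6 TPM, and both were higher in mouse. FOXA1 and SHH had at most 0.456 TPM.

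Cardiac and lateral mesoderm genes were near the floor in mouse, where the 14 members summed to 3.63 and 4.10 TPM, against 49.7 and 43.7 TPM in human. Of the 14, 6 were higher in human and 1 in mouse (median 1.77, or 1.64 with members at 0 set to their bound). HAND1 had 24.4 and 20.2 against 1.21 and 1.52 TPM, FOXF1 10.3 and 8.97 against 0.215 and 0 TPM and OSR1 10.5 and 12 TPM with 0 counts in mouse (at least 25.5-fold higher), factors of lateral and intermediate mesoderm. NKX2-5, TNNT2 and ISL1, of heart cells, had at most 1.10 TPM. With only the 4 early libraries in the fit, 3 members in place of 6 were called higher in human and 0 in place of 1 in mouse.

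Markers of fibroblasts, of trophoblast and amnion and of blood and endothelium were checked in the same way. Of 12 fibroblast markers 9 were higher in human and 0 in mouse, and the median was 4.54, or 3.75 with members at 0 set to their bound. They summed to 522 and 502 TPM in human and 25.1 and 24.1 TPM in mouse. COL1A1 (209 and 192 against 0.396 and 0.185 TPM) and COL1A2 (194 and 184 against 0.446 and 0.635 TPM), the chains of collagen I, made up most of the human sum, while DCN and LUM, defining markers of fibroblasts, had at most 0.420 TPM and FAP and POSTN at most 0.361 TPM. In RUES2-GLR ESCs COL1A1 had 88 and 97.4 TPM and COL1A2 40.1 and 41.1 TPM. The fitted log2 change of COL1A1 from these cells to early human RA-gastruloids was 0.24, less than its TPM show. COL3A1, the chain of collagen III, had 19.4 and 22.6 against 0.0176 and 0.0619 TPM at the early stage and 0.0796 and 0.0995 TPM in RUES2-GLR ESCs. The smooth muscle genes TAGLN (14.8 and 12.3 against 0.784 and 0.458 TPM) and ACTA2 (7.79 and 10.1 against 0.394 and 0.415 TPM) were also called higher in human, and had 11.3 and 11.2 TPM and 1.21 and 1.13 TPM in RUES2-GLR ESCs. Their part in the other results was not tested. Trophoblast and amnion markers summed to 35.3 and 30.0 TPM in human and 171 and 165 TPM in mouse, with 2 of 11 tested members higher in human and 4 in mouse. Most of the mouse sum came from TFAP2C (3.24 and 2.63 against 99.3 and 95.6 TPM), which is also a factor of naïve pluripotency, and IGFBP3 (0.901 and 1.38 against 63.7 and 60.7 TPM), while ELF5 had 0 counts in mouse and CGA at most 1.

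Blood and endothelial markers summed to 24.6 and 23.2 TPM in human and 102 and 98.5 TPM in mouse, with 2 of 11 members higher in human and 5 in mouse. The mouse sum was mainly PECAM1 (0.0967 and 0.102 against 71.8 and 69.1 TPM), an adhesion molecule that mouse ESCs carry, and CDH5, the endothelial cadherin, was at most 0.123 TPM. KDR, a receptor of early mesoderm and endothelium, had 9.5 and 9.89 against 0.383 and 0.336 TPM. The part of such cells in the results above was not tested.

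DNA methylation and cell cycle genes leaned to the mouse side. Of 9 DNA methylation genes 4 were higher in mouse and 2 in human (median -0.95). DNMT3L, the cofactor of de novo methylation, had 0.402 and 0 against 368 and 369 TPM (adjusted p = 1.79e-31), UHRF1, which brings the maintenance enzyme to DNA, 39.1 and 41.9 against 332 and 324 TPM, and the maintenance enzyme DNMT1 60.1 and 64.1 against 214 and 196 TPM. TET1, which oxidizes methylcytosine, differed by under 1 log2 unit, at 103 and 107 against 72.5 and 62.8 TPM. Of 13 cyclins, CDKs and CDK inhibitors 7 were higher in mouse and 3 in human (median -1.30). CCNE1 had 42.1 and 38.6 against 205 and 199 TPM and CDK4 225 and 221 against 644 and 631 TPM, while CCND2 had 57.5 and 56.2 against 18.6 and 19.3 TPM and CDK6 26.9 and 27.2 against 7.93 and 6.99 TPM. CDKN2A, an inhibitor often silent in stem cells, had 0.385 and 0.812 against 86.5 and 86.3 TPM, and CDKN1B was level at 24.5 and 24.1 against 25.9 and 24.9 TPM.

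Metabolic genes differed by pathway, with medians of the same sign at the primed stage, which is the difference of RUES2-GLR ESCs over EpiLCs. Of 21 glycolysis genes 13 were higher in human and 4 in mouse (median 1.61, and 1.18 at the primed stage). The glucose transporter SLC2A1 had 1990.01 and 2049 against 442 and 449.6 TPM, HK2 351 and 359 against 163 and 170.3 TPM and LDHA 1634 and 1646 against 1202 and 1194 TPM, the last without a call. GAPDH had 5965 and 6479 against 220.2 and 214 TPM and ALDOA, in the opposite direction, 63 and 72.3 against 3327 and 3299 TPM. Exonic bases shared with another gene made up 17.6% in human and 41.6% in mouse for GAPDH and 54.2% in human and 43.8% in mouse for ALDOA. Of 20 TCA cycle genes 7 were higher in mouse and 1 in human (median -0.62, primed -1.14), among them SDHA at 4.3 and 3.67 against 402 and 396 TPM, with 21.7% in human and 0.962% in mouse shared. Of 37 nuclear Complex I genes 22 were higher in mouse and 5 in human (median -1.29, primed -1.03). This count depended on the gene length used. With the length of the canonical transcript 14 were higher in mouse and 11 in human, and without length 12 were higher in mouse.

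Ribosomal and mitochondrial transcripts were the most abundant. Of 77 cytoplasmic ribosome genes 45 were higher in human and 14 in mouse (median 1.47, primed 1.62), and their summed level was 82234 and 84189 TPM in human and 70166 and 69247 TPM in mouse. The members differed among themselves, with RPLP1 at 1264 and 1317 against 9450.4 and 9404 TPM and RPS12 at 5005 and 4962 against 105 and 101 TPM. Ribosomal genes have many near-identical copies. Of 8 matched genes of the mitochondrial genome, MT-CO1 had 23169 and 23589 against 27969.7 and 31254 TPM and was not called, and MT-ND1 had 7812 and 8341 against 19601 and 21545 TPM. MT-CO2 and MT-CO3 had 15924 and 16433 against 0 and 0.444 TPM and 24589.9 and 25297 against 0 and 0.387 TPM, and both lie on the same transcribed strand as MT-CO1. At the primed stage RUES2-GLR ESCs had 70844 and 74640.5 TPM of MT-CO3, and EpiLCs had 0 TPM in both replicates. Cholesterol synthesis genes were balanced, with 8 of 21 higher in human, 3 in mouse and a median of 0.07.

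Genes commonly used as references were not stable between the species. Of 15, 8 were called higher in human, 3 in mouse and 4 in neither direction (median 1.32, primed 0.54). ACTB (3083 and 3032 against 2639 and 2602 TPM), RPLP0 (2539.5 and 2553 against 3102 and 3219 TPM) and POLR2A (179 and 193 against 239 and 255 TPM) were close, whereas GAPDH and SDHA, described above, stood at 5.05 and -6.43 on the log2 scale. EEF1A1 was called higher in mouse at -1.18, and without gene length its difference was 0.56 in the human direction.

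A rule of size over the whole table named 10 genes in each direction from 5421 candidates. On the human side these were COL6A1 (598 and 635 against 0.356 and 0.208 TPM, 11.18 on the log2 scale), SPON1 (180.05 and 186 against 0.15 and 0.146 TPM), CPNE1, APLNR, PKIB (73.7 and 77.2 against 0.088 and 0.129 TPM), TBX6, COL1A1, STC1 (188 and 214 against 0.495 and 0.145 TPM), RPL24 and STRA6. On the mouse side they were NANOG, ASNS, CDC42, ESRRB, PWP2, LEFTY1, COX6B2 (0.302 and 0.424 against 269.6 and 261 TPM), MIF, PLCG2 (0.163 and 0.129 against 86.6 and 82.3 TPM) and NOP2. Several of these are genes that nearly all cells use. CDC42, a small GTPase, had 0.337 and 0.226 against 466 and 505 TPM, ASNS, which makes asparagine, 0.611 and 0.403 against 902 and 917 TPM, and the nucleolar factors PWP2 and NOP2 0.219 and 0.231 against 181 and 186 TPM and 0.479 and 0.758 against 350.1 and 328 TPM.

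CPNE1, a calcium-dependent membrane-binding protein, had 167 and 160.1 against 0.23 and 0.0674 TPM, the ribosomal RPL24 1205 and 1215 against 2.69 and 1.77 TPM and the cytokine MIF 2.05 and 1.08 against 1141 and 1113 TPM. For these 7 genes the order of the species was the same at the primed stage. RUES2-GLR ESCs against EpiLCs had 0.272 and 0.0827 TPM against 636 and 587 TPM of CDC42, 1.1 and 1.24 TPM against 829 and 824 TPM of ASNS and 0.983 and 1.84 TPM against 1263 and 1248 TPM of MIF. For PWP2 they had 0.0262 and 0 TPM against 192 and 178 TPM, for NOP2 0.459 and 0.574 TPM against 392 and 388 TPM, for CPNE1 71.4 and 69 TPM against 0 TPM in both replicates, and for RPL24 732 and 671 TPM against 3.53 and 2.27 TPM. The stage genes NANOG, ESRRB and STRA6 differed less at the primed stage, by -2.14, -2.16 and 2.84 on the log2 scale against -11.45, -10.15 and 8.95 at the early stage. TBX6 and LEFTY1 also differed less, by 2.33 and -3.67 against 9.50 and -9.40. The primed difference uses EpiLCs, which are not the source of the mouse gastruloids. The source, naïve ESCs, had 1367 and 1313 TPM of NANOG and 612 and 598 TPM of ESRRB. EpiLCs had 104 and 122 TPM of NANOG and 10.6 and 9.42 TPM of ESRRB. LEFTY1 went the other way, at 354 and 378 TPM in naïve ESCs and 607 and 596 TPM in EpiLCs. For APLNR, a stage gene as well, the primed difference has no size, since EpiLCs had 0 TPM in both replicates. RUES2-GLR ESCs had 5.13 and 8.6 TPM of it. Exonic bases shared with another gene were 94.1% in human and 12.9% in mouse for MIF, 25.8% in human and 84.1% in mouse for CPNE1, 54.4% in human and 6.74% in mouse for NOP2 and 15.2% in human and 1.75% in mouse for CDC42. The part of shared exons and of near-identical copies in these values was not tested.

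The species difference at the early stage was then set against that between the primed states, RUES2-GLR ESCs and mouse EpiLCs, in the same fit. Gene length, annotation and cell line enter both stages of a species alike in this contrast. RUES2-GLR ESCs are the source of the human gastruloids, whereas EpiLCs are primed mouse cells but not the source of the mouse gastruloids. The contrast shares the early libraries with the comparison above, so the results are given side by side. It called 33.0% of the tested genes (4596), of which 14.3% of the tested genes (1995) rose and 18.7% (2601) fell, where rose means that human over mouse was higher at the early than at the primed stage.

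By list, the share of members that rose or fell is read against the background of 33.0%. In the HOX list 11 of 36 tested members rose and 0 fell. The share called in either direction was just below that background, but by direction 14.3% of all tested genes rose and 18.7% fell. In the paraxial mesoderm list 10 of 18 rose and 0 fell, in the axial progenitor list 11 of 17 rose and 4 fell, and in the RA list 10 of 24 rose and 3 fell. Of pluripotency genes, 13 of 21 core and primed members fell and 1 rose, and 11 of 16 naïve members fell and 2 rose. Lists that do not mark a stage were divided. Glycolysis (9 rose and 4 fell of 21) and cholesterol synthesis (7 and 4 of 21) were above the background. Near it were cyclins with CDK inhibitors (5 and 0 of 13) and DNA methylation genes (1 and 1 of 9). Below it were reference genes (0 and 1 of 15) and the TCA cycle (3 and 0 of 20). Ribosomal genes (0 and 6 of 77) and Complex I genes (1 and 5 of 37) were also below it. The 6 mitochondrial genes other than MT-CO2 and MT-CO3 fell, with primed differences from 1.92 to 5.12 on the log2 scale.

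Single stage genes moved in both directions. Human over mouse rose for CRABP2, with a contrast of 4.79 ± 0.17 (adjusted p = 8.32e-25), and for DLL1, with 5.84 ± 0.21 (adjusted p = 4.73e-25). CDX1 (adjusted p = 7.30e-06) and CDX2 (adjusted p = 1.28e-08) also rose, but their contrast has no size, since RUES2-GLR ESCs had 0 TPM of both. The same holds for many HOX genes, of which 25 of 36 tested were not called in this contrast. SP5 fell (adjusted p = 1.28e-08), from 7.78 and 11.3 TPM in RUES2-GLR ESCs and 0 and 0.111 TPM in EpiLCs. CDH1 fell, with a contrast of -5.49 ± 0.14 (adjusted p = 7.49e-30), OTX2 with -6.18 ± 0.20 and SOX2 with -5.42 ± 0.14.

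By the same rule of size, the largest rises included FGF17 (7.85), FGF4 (7.40), HAS2 (6.56) and MSX1 (6.43), and the 5 largest falls were PRDM14 (-10.60), VWF (-10.48), NANOG (-9.31), NTN1 (-9.10) and KLHDC7A (-8.71). HAS2, which makes hyaluronan in mesoderm, had 171 and 172 against 3.76 and 3.65 TPM at the early stage, 3.85 and 2.54 TPM in RUES2-GLR ESCs and 14.6 and 13 TPM in EpiLCs. FGF4 was level at the early stage and had been at 0.794 and 1.06 TPM in RUES2-GLR ESCs and 322 and 328 TPM in EpiLCs. PRDM14, a factor of the germline and of pluripotent cells, went from 34.5 and 38.3 TPM to 3.48 and 2.17 TPM in human. In mouse it was at 0.202 and 0.728 TPM in EpiLCs and 38.5 and 36.7 TPM in early gastruloids. Their source, mouse naïve ESCs, had 167 and 163 TPM of PRDM14.

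**Figure D5:**
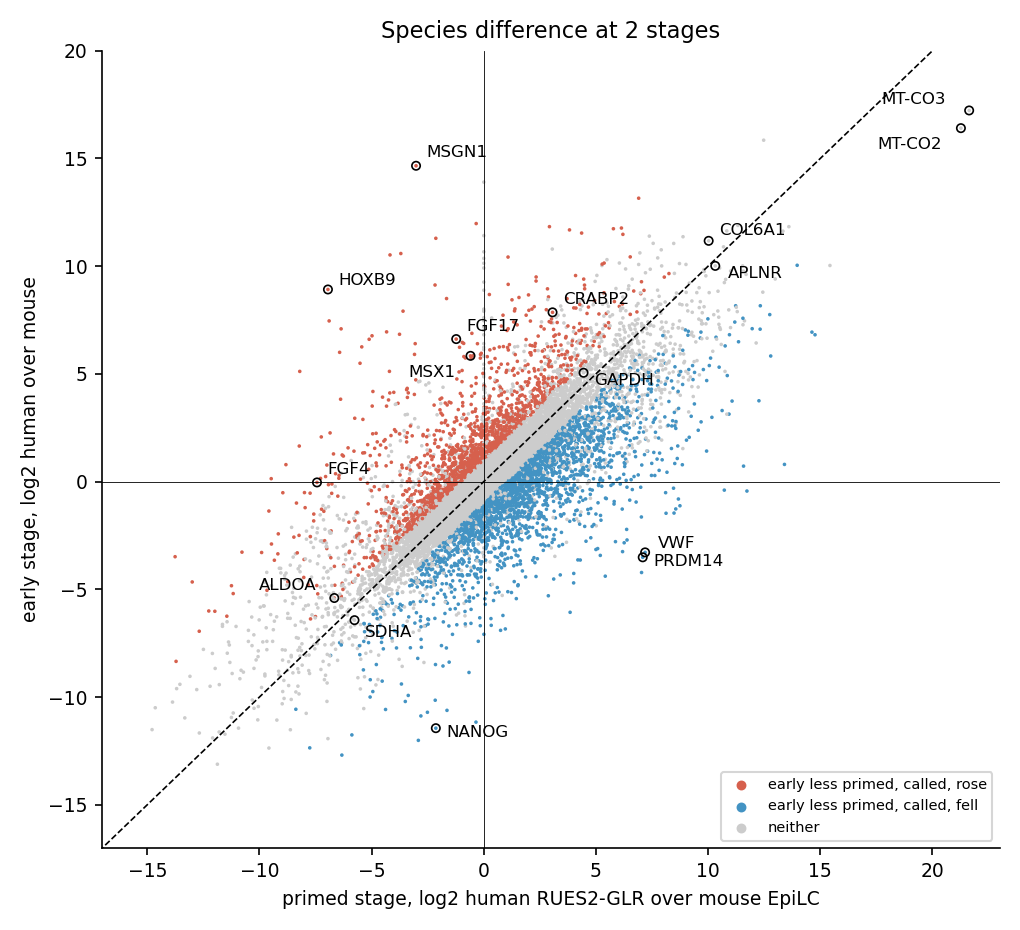
Fitted log2 difference of human over mouse for each tested gene at the primed stage (x axis, RUES2-GLR ESCs over EpiLCs) and at the early gastruloid stage (y axis), in red where the difference between stages rose, blue where it fell and grey where it was not called, with equality on the dashed line. MSGN1, HOXB9 and FGF4 lie above the line and NANOG and PRDM14 below it, while GAPDH and SDHA lie near it.

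As a description of where each early group stood among the stages of the other species, TPM levels were correlated across genes. Over the 13929 tested genes, early human RA-gastruloids had a Spearman coefficient of 0.656 with mouse naïve ESCs, 0.678 with EpiLCs, 0.675 with early and 0.735 with late mouse gastruloids. Over the 270 tested genes of the stage lists, here with the NODAL and BMP, FGF and cadherin lists included, the values were 0.160, 0.282, 0.323 and 0.356. For early mouse gastruloids, the coefficients over the stage lists were 0.602 with human naïve H9 ESCs, 0.665 with primed H9 ESCs, 0.645 with primed RUES2-GLR ESCs, 0.323 with early and 0.0903 with late RA-gastruloids. Over all tested genes they lay closer together, at 0.714, 0.694, 0.643, 0.675 and 0.652 in the same order, with the highest for naïve H9 ESCs. Over stage genes the highest coefficient of early mouse gastruloids was with primed H9 ESCs, and that of early human RA-gastruloids was with late mouse gastruloids. These correlations are across genes that are not independent, share the libraries named, and were not tested.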

How the data were processed

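Polyadenylated RNA was sequenced from 18 libraries, 10 human and 8 mouse. Per the study's methods and the submitters' processing notes, the authors demultiplexed with bcl2fastq 2.20, trimmed with Trimmomatic 0.39, aligned reads by STAR (human to GRCh38, mouse to GRCm39), ran featureCounts per gene, and the deposited values are whole read counts per gene with a gene length. The annotation release and strand setting were not given in the sources used here, and featureCounts' default leaves out multi-mapping reads and reads that overlap several genes. TPM was computed from counts and length over all genes of a library, for levels and ranks.

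Differences came from edgeR 4.0.16 (R 4.3.3, limma 3.58.1) with the quasi-likelihood test on the 18 libraries, 9 group coefficients, TMM scaling and log gene length as an offset, after filterByExpr, with Benjamini-Hochberg adjustment and thresholds of 0.05 and 1 on the log2 scale. The fitted log2 difference lay above the log2 ratio of TPM by a median of 0.21, because the scalings differ. The difference of species differences between stages came from the same fit. The scripts were tested on simulated data. Library totals of the early groups were 9499295 to 20052505, 3 counts being 0.150 to 0.316 CPM. RUES2-GLR replicate 2 was shallower, at 3681739. The fit had 9 residual degrees of freedom and a common biological coefficient of variation of 6.97%. Shared exonic bases were taken from GENCODE releases 44 and 39, which held 44876 of 44910 human and 29486 of 29720 mouse genes. Start and end were equal to GENCODE for 44631 human but only 11861 mouse genes. The mouse shares thus come from gene models that often differ from those counted. Motifs and promoter identities were computed in Python 3.11.15.

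The members and the 26 gene lists were chosen with earlier results of these data known. Values were given for members of the stage lists called with at least 10 TPM in the higher species or level at 10 TPM in both, the 10 largest differences in each direction among genes with at least 10 TPM in the higher species, more than 3 counts in a library of the lower species and no overlap, the 10 highest genes of each species, the 5 largest contrasts between stages in each direction, and brachyury. Other genes were named from their lists after their values were seen. Alternatives were DESeq2 1.42.0, its size factors, upper quartile scaling, no length, no filter, adjusted p alone, the 4 early libraries alone, limma on log2(TPM + 1) and log2(TPM + 0.1), a replicate block, each replicate left out and, added after the data were seen, the length of the canonical transcript. Y-linked genes are not shown, and a few other members that these rules name are not reported here.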

Additional observations from a re-analysis of the deposited data

Results flagged for a closer look

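The species difference was not the same at the early as at the primed stage for 4596 genes. The test was the difference of differences in edgeR's quasi-likelihood fit. The primed stage means RUES2-GLR ESCs and mouse EpiLCs, and the early stage the gastruloids of both species. EpiLCs are not the source of the mouse gastruloids. The contrast is on the log2 scale and positive where human over mouse was higher at the early stage. FGF17 had 7.85, FGF4 7.40, HAS2 6.56 and MSX1 6.43. PRDM14 had -10.60, VWF -10.48, NANOG -9.31, NTN1 -9.10 and KLHDC7A -8.71. NTN1, the guidance factor netrin, had 11 and 10.9 TPM against 93.4 and 87.6 TPM at the early stage. It was at 0.413 and 0.409 TPM in EpiLCs but at 115 and 103 TPM in mouse naïve ESCs, the source of the gastruloids. VWF, the von Willebrand factor, and KLHDC7A were below 5 TPM in all early libraries and above 13 TPM in both RUES2-GLR ESC libraries. With 2 libraries a group, single libraries were not screened as outliers. Causes were not tested.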

How the results depend on the processing

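With 2 libraries a group from 1 line of each species, the spread covers these cultures only, and genes near 3 counts have no firm fold. Gene lengths, shared exons and near-identical copies differ between the annotations. Called genes ranged from 7351 (limma on log2(TPM + 1), where 46.1% of calls were higher in human against 53.6%) to 11563 (adjusted p alone), and from 8221 to 8411 with 1 early library left out, against 8404. The median log2 difference over all tested genes was 0.095, and it was -0.0782 with limma on log2(TPM + 1), -0.115 with log2(TPM + 0.1) and -0.0797 without human early replicate 1. The contrast between stages called 4596 genes, 4341 to 4579 with 1 library left out, and with adjusted p alone 7766, of which 4048 rose. The Spearman coefficient was 0.726 to 0.730 with 1 early library left out. Brachyury differed by -0.76 as the log2 ratio of mean TPM and by -0.55 when the pair was added to the fit.

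Of the list counts, those higher in mouse changed by over 1.5 times without gene length for WNT targets (4, from 1), cardiac (0, from 1), Complex I (12, from 22) and ribosomal genes (8, from 14), and those higher in human for DNA methylation (1, from 2) and cholesterol synthesis (4, from 8). With the canonical transcript's length, counts higher in mouse were 2 for WNT targets, 0 for cardiac genes, 2 for glycolysis (from 4), 14 for Complex I and 1 for reference genes (from 3), and counts higher in human 1 for DNA methylation, 2 for the TCA cycle (from 1), 11 for Complex I (from 5) and 5 for cholesterol synthesis. With only the 4 early libraries, counts higher in mouse were 2 for WNT targets, 1 for HOX (from 2) and 0 for cardiac genes, and counts higher in human 3 for cardiac genes (from 6) and 1 for trophoblast and amnion markers (from 2). EEF1A1 had 0.56 without gene length, and with the canonical length ITGB1 had 1.32 and TET3 -0.41, each on the other side of 0 from the main value. Of 373 genes followed one by one, 276 kept their side of the threshold and direction in all alternatives. Fewer samples set the spread in the fit of 4 libraries, and the causes of the other changes were not tested.

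The replicate numbers did not pair the libraries (correlations of deviations of -0.0131 and 0.0032). With the replicate number as a block, 8396 genes were called between species and 4527 in the contrast between stages.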
